A study of Danio rerio with 16 samples.

Results

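Zebrafish embryos of wild-type genotype were compared at 48 and at 24 hours post fertilisation (hpf), by bulk RNA sequencing of 4 libraries at each age. These 8 libraries were chosen by their labelled genotype and age, and the series holds 16 libraries in all. The other 8 libraries came from mutants of lipf and pla2g15, which encode a gastric lipase and a lysosomal phospholipase, at the same ages. The embryos analysed here were labelled WT with no treatment, and the description of the series calls them siblings of the mutants. The sample labels name the tissue "body", whereas the series text refers to embryos taken whole. The sources used here do not say how many embryos went into a library or whether the 4 libraries of an age came from separate clutches. The p-values therefore measure the spread among libraries only, and that spread may be technical. For single genes it was estimated over all 16 libraries, mutants included.

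At 24 hpf a zebrafish embryo has formed its somites, has a beating heart tube and primitive blood, and is still extending its tail from the tailbud. By 48 hpf the tail bud has been used up, muscle, retina and brain have differentiated further, pigment cells have spread over the body, the pectoral fin bud and the jaw cartilages are forming, and hatching begins. Throughout this time the embryo feeds on yolk, which the yolk syncytial layer packages into lipoproteins. In a bulk sample, fewer cells of a type and less RNA per cell cannot be told apart.

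Ageing from 24 to 48 hpf changed the larger part of the measured transcriptome. Of 36109 genes in the file, 24300 had enough reads to be tested, and 63.3% of these, 15383 genes, differed between the ages at an adjusted p under 0.05 (quasi-likelihood F-test of edgeR with Benjamini-Hochberg adjustment over all genes tested, the test behind every adjusted p below). A gene passing that threshold is said here to have risen or fallen. At 48 hpf 8290 genes (34.1%) were higher and 7093 (29.2%) were lower, and the median log2 fold change over all genes tested was 0.06. A change of at least 2-fold was passed by 5373 risen genes (22.1%) and 2463 fallen genes (10.1%), and a change of at least 8-fold by 1252 and 185. In 14388 of the 24300 genes tested, every library of 1 age lay above every library of the other. Most genes tested thus had groups that did not overlap, so a lack of overlap alone does not set a gene apart. With such a background, a list of genes in which the shares that rose and fell are near 34.1% and 29.2% does not stand out from the genome.

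**Figure D1:**
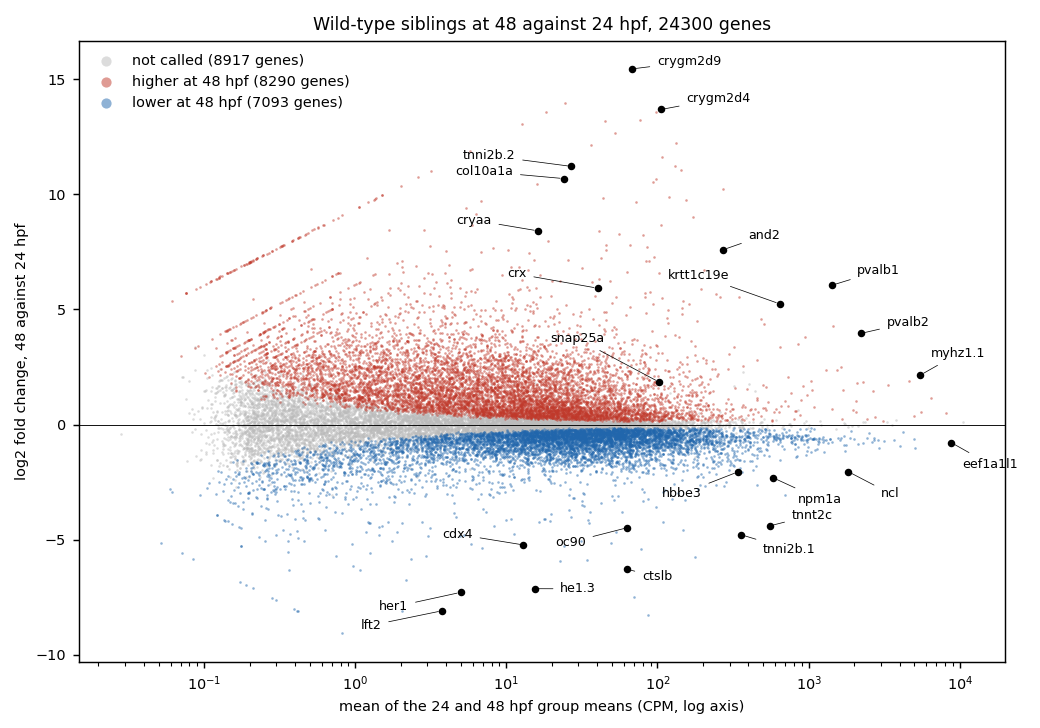
Log2 fold change of each of the 24300 genes tested (vertical axis, 48 against 24 hpf) against the mean of the group means in CPM (horizontal log axis); red points are the 8290 genes higher at 48 hpf, blue points the 7093 lower, grey points the genes not called. Lens crystallins such as crygm2d9 form the top of the cloud, hatching, tailbud and Nodal genes such as he1.3, cdx4 and lft2 its lower edge, while eef1a1l1 and ncl, 2 abundant fallen genes, changed by less.

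The 10 genes with the largest log2 fold change, among those with a symbol and at least 10 CPM (counts per 1000000 counts of the library, scaled by TMM) in the higher group, were all lens gamma crystallins of the crygm2d family. Most of the 10 with the smallest came from the hatching gland, the tailbud, early muscle and early blood. he1.3 and ctslb encode proteases of the hatching gland, and msgn1, tbx6 and cdx4 encode transcription factors of the presomitic mesoderm and tailbud. The endothelin receptor gene ednrab had 45.1, 48.4, 32.7 and 52.1 CPM at 24 hpf and 0.969, 0.514, 0.82 and 0.595 CPM at 48 hpf, so every 24 hpf library was far above every 48 hpf library (log2 fold change -5.93 ± 0.30 SE, adjusted p = 1.42e-11). The cytochrome P450 gene cyp4t8 had 58.1 to 75.9 CPM at 24 hpf and 0.839 to 1.45 CPM at 48 hpf and fell 58.9-fold. The zinc finger genes znfl1k and drl fell 28.1-fold and 26.8-fold, drl being a marker of early lateral plate and blood precursors. In absolute terms the 5 largest rises were all muscle genes, myhz1.1, mylpfa, actc1b, pvalb2 and tpma. The 5 largest falls were genes of protein synthesis, chromatin and protein folding, eef1a1l1, hmga1a, eef2b, ncl and hsp90ab1. eef1a1l1, which encodes an elongation factor of translation, had 11146, 11058, 9852 and 12559 CPM at 24 hpf and 6144, 6103, 6532 and 7076 CPM at 48 hpf (log2 fold change -0.79 ± 0.07 SE, adjusted p = 2.74e-08). eef2b, another elongation factor gene, and hsp90ab1, a chaperone gene, fell 1.91-fold and 1.52-fold, and none of these genes' groups overlapped.

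**Figure D2:**
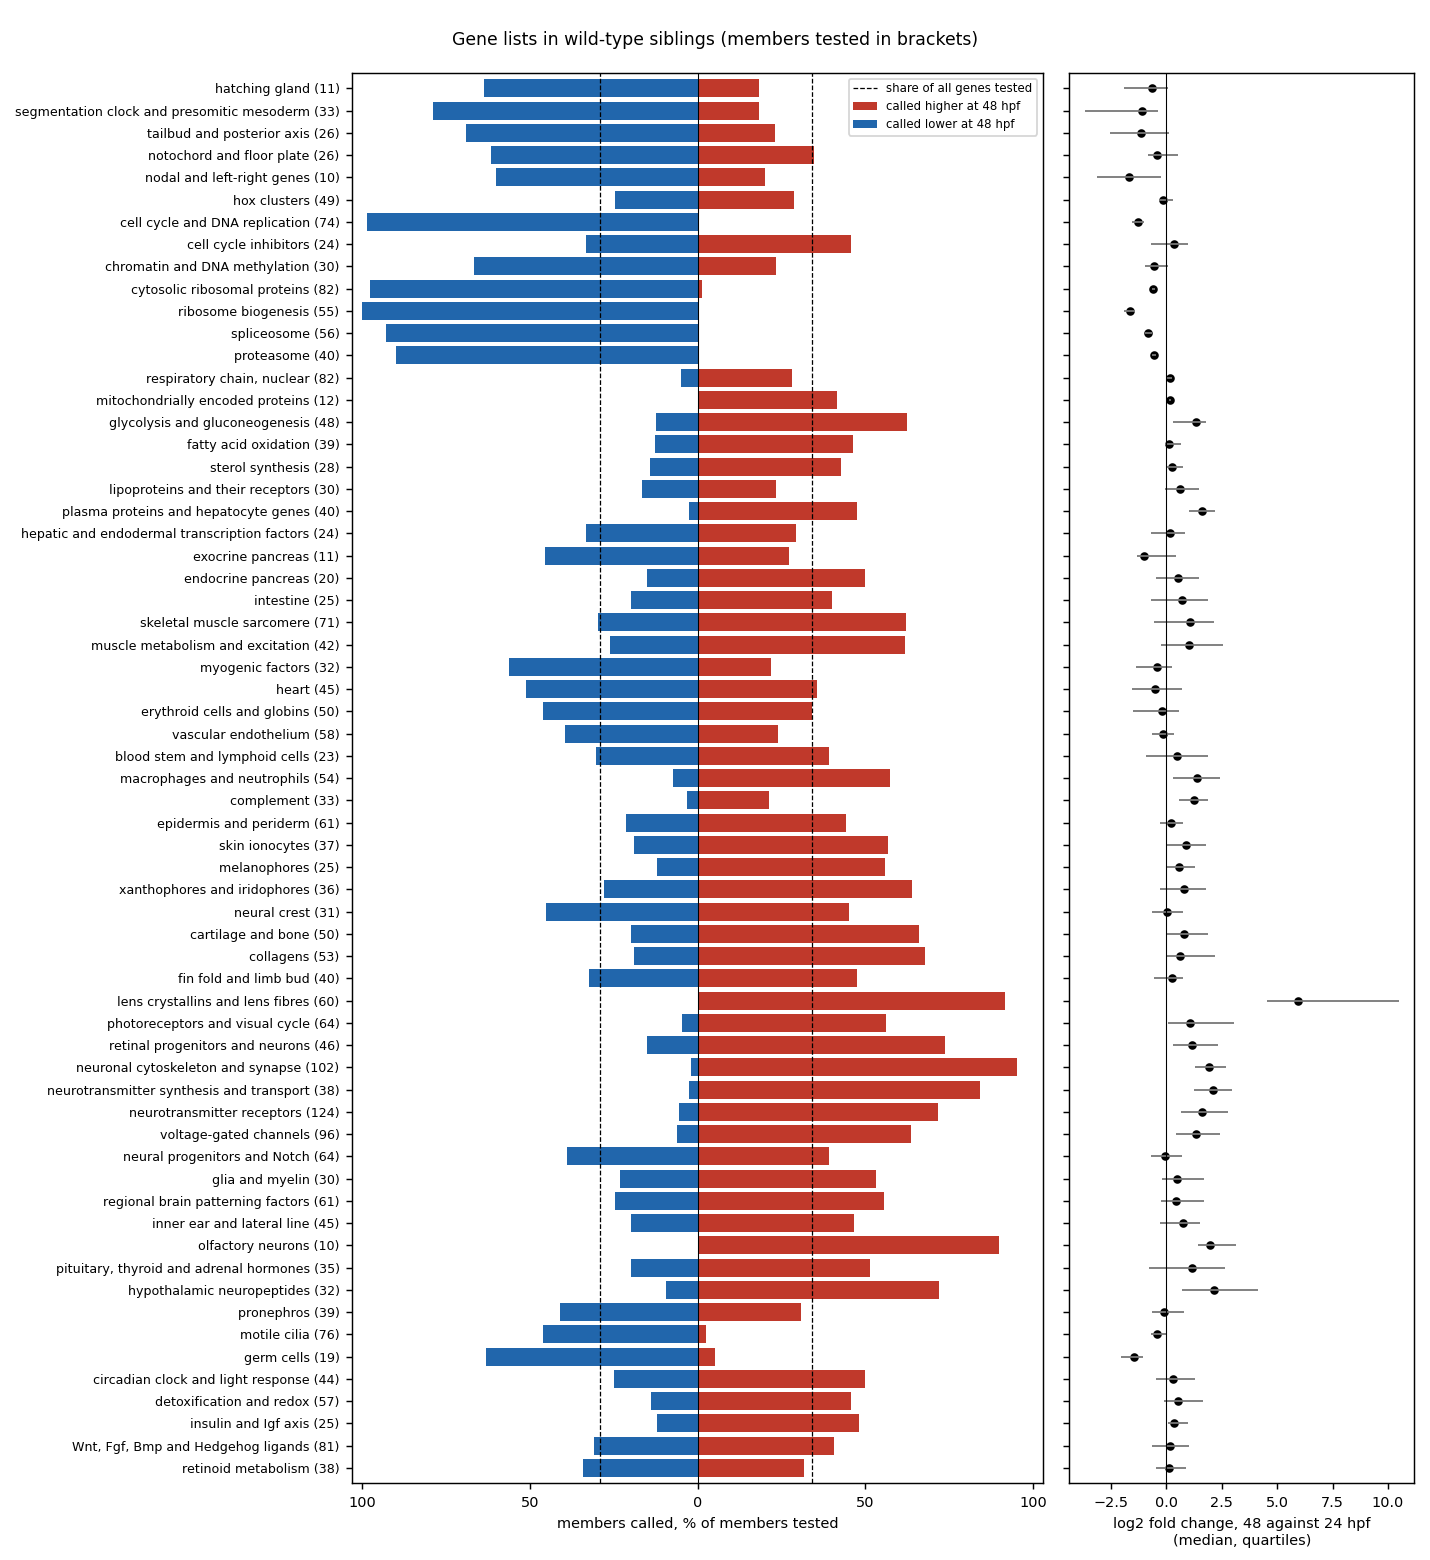
For each of 63 gene lists, the left panel gives the members called higher (red, to the right) and lower (blue, to the left) at 48 hpf as a percentage of those tested, with dashed lines at the shares of all genes, 34.1% and 29.2%; the right panel gives the median log2 fold change with its quartiles. Cell cycle, ribosome and splicing lists lie almost wholly to the left, lens, neuronal and transmitter lists almost wholly to the right, and hox, neural crest and neural progenitor lists are split.

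Genes of the growing tail fell together. Of 33 tested genes of the segmentation clock and presomitic mesoderm, which time and lay down the somites, 26 fell and 6 rose, with a median log2 fold change of -1.10. her1, an oscillating transcriptional repressor of the clock, had 3.81, 14.4, 9.9 and 11.5 CPM at 24 hpf and 0.145, 0.0935, 0 and 0 CPM at 48 hpf, so that all 24 hpf libraries were higher and replicate 1 was the lowest of them (log2 fold change -7.29 ± 0.63 SE, adjusted p = 1.53e-08; -8.16 without 48 hpf replicate 1). Its partner her7 had 0.424 to 5.6 CPM at 24 hpf and 0.0541 to 0.355 CPM at 48 hpf, with -4.22 on the log2 scale (-4.95 without 48 hpf replicate 3). msgn1 had a mean of 13.5 ± 2.91 CPM (SD, n = 4) at 24 hpf and 0.325 ± 0.221 CPM (SD, n = 4) at 48 hpf and fell 41.7-fold, and tbx6 fell 38.3-fold. mespba, which marks the next somite boundary, was counted in 50 reads over the 4 libraries at 24 hpf and in 2 at 48 hpf, a ratio with a 95% counting interval of 7.13 to 230. The list held both directions: the Notch ligand gene dlc rose slightly, from 62.6 to 71.1 CPM at 24 hpf and 74.3 to 83.4 CPM at 48 hpf (log2 fold change 0.27 ± 0.06 SE, adjusted p = 0.00119), and uncx, a homeobox gene of the posterior part of each somite, rose 3.97-fold. Without replicates 1 and 4 at 24 hpf the rise of dlc was not called (adjusted p = 0.0884).

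Tailbud and midline genes went the same way in most cases. In the list of tailbud and posterior axis genes, 18 of 26 tested members fell and 6 rose, with a median of -1.14. cdx4, a caudal homeobox gene, had 24.5, 26, 24.2 and 26.6 CPM at 24 hpf and 0.581, 0.795, 0.665 and 0.65 CPM at 48 hpf, and the groups lay far apart (log2 fold change -5.23 ± 0.17 SE, adjusted p = 6.27e-14). tbxta, the brachyury gene of tailbud and notochord, had 44.9 to 54 CPM at 24 hpf and 13.7 to 18.9 CPM at 48 hpf and fell 3.06-fold. noto, a homeobox gene of the notochord, fell 5.93-fold. cyp26a1, which clears retinoic acid from the tailbud, had 14.6 to 19.3 CPM at 24 hpf and 17 to 21.6 CPM at 48 hpf and was not called (adjusted p = 0.182), and the homeobox gene nkx1.2lb rose 8.05-fold. Of 26 tested notochord and floor plate genes, 16 fell and 9 rose (median -0.40). shha, the Sonic hedgehog ligand of notochord and floor plate, fell 1.35-fold, and the sheath collagen gene col8a1a fell 3.74-fold. slc38a8b, a transporter gene, fell 18.9-fold. entpd5a, needed for mineralisation, had 1.35 to 1.44 CPM at 24 hpf and 4.18 to 7.58 CPM at 48 hpf and rose 3.94-fold, and the collagen gene col9a1a had 20.5 to 22.4 CPM at 24 hpf and 133 to 162 CPM at 48 hpf and rose 6.65-fold.

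Nodal and left-right genes, whose main work precedes 24 hpf, fell in 6 of 10 tested cases and rose in 2 (median -1.69). lft2, a secreted inhibitor of Nodal, had 8, 8.19, 5.01 and 8.68 CPM at 24 hpf and 0, 0, 0 and 0.108 CPM at 48 hpf, with 3 of the 48 hpf libraries at 0. The fitted change of lft2 (log2 fold change -8.09 ± 0.64 SE, adjusted p = 4.17e-09) moved to -11.27 without replicate 4 at 48 hpf, the other 3 libraries of that age holding no read. lft1, the other inhibitor, had 2.87 to 3.84 CPM at 24 hpf and 0 to 0.217 CPM at 48 hpf (log2 fold change -5.08 ± 0.63 SE, adjusted p = 1.39e-06; -5.71 without replicate 4 at 48 hpf). spaw, the left-sided Nodal ligand, had 0.205 to 1.22 CPM at 24 hpf and 0.0234 to 0.436 CPM at 48 hpf and was not called (adjusted p = 0.058, and 0.0314 and 0.0075 without replicate 3 at 24 hpf or replicate 1 at 48 hpf). dand5, another Nodal antagonist, was counted in 12, 2, 2 and 4 reads at 24 hpf and 7, 6, 8 and 0 reads at 48 hpf, too few to be tested.

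The hatching gland, whose enzymes digest the egg envelope, gave 7 fallen and 2 risen genes of 11 tested (median -0.66), with large differences between libraries. ctslb, the cathepsin of the gland, had 13.9, 212, 81.1 and 191 CPM at 24 hpf and 0.823, 1.59, 2.35 and 1.57 CPM at 48 hpf, so replicate 1 at 24 hpf was the lowest of its group and still above every 48 hpf library (log2 fold change -6.29 ± 0.73 SE, adjusted p = 6.97e-07). he1.3 had 14.7, 54, 32.6 and 21.7 CPM at 24 hpf and 0.194, 0.327, 0.177 and 0.162 CPM at 48 hpf (log2 fold change -7.13 ± 0.61 SE, adjusted p = 1.25e-08). he1.1, the most counted hatching enzyme gene, had 44.9, 810, 296 and 649 CPM at 24 hpf and 86.2, 132, 289 and 101 CPM at 48 hpf, and the groups overlapped because replicate 1 at 24 hpf was below all 4 libraries at 48 hpf. Its call (adjusted p = 0.0312) ended when replicate 2 or 4 at 24 hpf or replicate 1, 2 or 4 at 48 hpf was left out (adjusted p 0.069 to 0.127). agr2, a gene of secretory cells in the same list, rose 3.71-fold. The near-identical he1 genes share sequence, so how reads were divided between them is uncertain. Their sum was 66, 987, 376 and 766 CPM at 24 hpf and 98.9, 151, 333 and 116 CPM at 48 hpf.

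The hox genes, which encode position along the body axis, were split. Of 49 tested, 14 rose and 12 fell, with a median of -0.15, and these counts became 12 and 17 under RLE scaling and 14 and 14 under upper-quartile scaling. In paralog groups 1 to 4, expressed from the hindbrain backwards, 7 of 14 fell and 2 rose. In groups 5 to 8, 5 of 12 rose and 2 fell, and all 4 tested genes of group 5 were among the risen. Groups 9 to 13 had 7 risen and 3 fallen genes of 23. Among the called members with at least 5 CPM in the higher group, the largest rise was that of hoxb13a, a tail gene, with 2 to 3.48 CPM at 24 hpf and 7.34 to 10 CPM at 48 hpf (3.3-fold), and the largest fall that of hoxb7a, with 20.5 to 22.4 CPM at 24 hpf and 10.6 to 11.6 CPM at 48 hpf (1.94-fold).

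The machinery of cell division fell in nearly every gene examined. Of 74 tested genes of the cell cycle and DNA replication, 73 fell, none rose and the median log2 fold change was -1.28, against 29.2% of all genes that fell. Together these genes took 1.26% ± 0.044 (SD, n = 4) of all counts at 24 hpf and 0.538% ± 0.0156 at 48 hpf. pcna, the clamp of DNA polymerase, had 1103, 867, 871 and 1015 CPM at 24 hpf and 257, 360, 339 and 370 CPM at 48 hpf, with no overlap (log2 fold change -1.54 ± 0.11 SE, adjusted p = 1.41e-09). mcm2, part of the replicative helicase, fell 3.76-fold, and the replication initiation gene mcm10 fell 3.99-fold, the largest fall of the list. Of mitotic genes, ccnb1 (cyclin B) fell 2.56-fold, mki67 1.93-fold and cdk1 1.73-fold. Inhibitors of the cycle were mixed, with 11 risen and 8 fallen of 24 (median 0.34). cdkn1d had 7.73 to 9.02 CPM at 24 hpf and 74 to 101 CPM at 48 hpf and rose by 3.36 on the log2 scale, cdkn1ca was not called (adjusted p = 0.971), and the antiproliferative genes btg2 and rbl1 fell 1.86-fold and 2.45-fold.

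Chromatin genes of early embryos fell with them, in 20 of 30 tested cases against 7 that rose (median -0.55). hmga1a, an architectural chromatin protein gene, had 7134, 6261, 6431 and 6951 CPM at 24 hpf and 3289, 3303, 3370 and 3468 CPM at 48 hpf (1.99-fold lower, adjusted p = 3.64e-09). dnmt1, the maintenance DNA methyltransferase gene, fell 2.91-fold, and the de novo methyltransferase gene dnmt3bb.2 fell 4.4-fold. hmgb1a, which encodes another abundant chromatin protein, rose from 446 to 507 CPM at 24 hpf and 756 to 866 CPM at 48 hpf.

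Genes of ribosome production fell without exception among those tested. All 55 tested genes of ribosome biogenesis fell, with a median of -1.65, and 53 of them at least 2-fold. npm1a, the nucleolar chaperone nucleophosmin, had 1045, 884, 809 and 1130 CPM at 24 hpf and 148, 240, 178 and 215 CPM at 48 hpf (log2 fold change -2.31 ± 0.15 SE, adjusted p = 2.80e-10). ncl (nucleolin) had 2686 to 3285 CPM at 24 hpf and 641 to 769 CPM at 48 hpf and fell 4.15-fold, and fbl (fibrillarin), which methylates ribosomal RNA, fell 4.16-fold. Of 82 genes of cytosolic ribosomal proteins, 80 fell, by a smaller median of -0.59, and their share of all counts went from 8.41% ± 0.796 (SD, n = 4) to 5.77% ± 0.468. rpl7l1, a paralog involved in ribosome assembly, fell most, 2.8-fold. rplp2, of the ribosomal stalk, was the 1 member called higher (log2 fold change 0.25 ± 0.11 SE, adjusted p = 0.0468), and this call ended under RLE and upper-quartile scaling and without any 1 of 6 of the libraries (replicates 1, 2 and 3 at 24 hpf and 2, 3 and 4 at 48 hpf, adjusted p 0.0666 to 0.227).

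Splicing and protein degradation genes followed. In the spliceosome list 52 of 56 tested members fell and none rose (median -0.83), and 1 rose without replicate 4 at 24 hpf or without replicate 1 at 48 hpf. snrpd1, a core protein of the small nuclear ribonucleoproteins, fell 2.05-fold, sf3b1, which recognises the branch point, fell 1.35-fold, and prpf8, at the catalytic core, fell 2.51-fold. Of 40 proteasome genes 36 fell and none rose, with a median of -0.54 and none changed 2-fold, psmd9 falling most, 1.81-fold.

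Of 48 tested genes of glycolysis and gluconeogenesis, 30 rose and 6 fell, with a median of 1.32, and 27 rose at least 2-fold. pkmb, a pyruvate kinase gene, had 6.57, 8.14, 2.28 and 1.7 CPM at 24 hpf and 185, 205, 168 and 275 CPM at 48 hpf (log2 fold change 5.48 ± 0.37 SE, adjusted p = 5.53e-10). The muscle genes pgam2 (phosphoglycerate mutase) and eno3 (enolase) rose 3.09-fold and 2.72-fold. Among genes chosen after their values were seen, the phosphofructokinase genes pfkma and pfkmb rose 20-fold and 11.6-fold. The more widely used isoforms aldoaa (aldolase) and hk1 (hexokinase) fell 1.64-fold and 1.72-fold. pck1, which opens gluconeogenesis, had 1.75, 2.02, 6.03 and 0.319 CPM at 24 hpf and 13, 4.7, 7.89 and 4.79 CPM at 48 hpf and was not called (adjusted p = 0.086), but was called without replicate 3 at 24 hpf (0.0187) and in the fit of the 8 wild-type libraries alone (0.0441).

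Of 82 tested nuclear genes of the respiratory chain, 23 rose and 4 fell (median 0.15), a share of rises under that of all genes, and the rises numbered 13 without replicate 3 at 24 hpf or without replicate 4 at 48 hpf. The number fallen went down to 1 without replicate 1 or 4 at 24 hpf or 1 or 3 at 48 hpf, and to 2 without replicate 2 at 48 hpf. cox4i1 and atp5fa1, of cytochrome oxidase and ATP synthase, were not called (adjusted p = 0.189 and 0.927). ndufa4 rose 3.3-fold, and atp5if1a, an inhibitor of the synthase, fell 1.5-fold. Of the 12 mitochondrially encoded protein genes 5 rose and none fell (median 0.18), the largest rise being that of mt-co2 (log2 fold change 0.35 ± 0.08 SE, adjusted p = 0.000762). The count risen was 2 under RLE scaling, with no filter, without replicate 2 or 3 at 24 hpf or without replicate 2 or 4 at 48 hpf, and 3 in DESeq2 or without replicate 3 at 48 hpf. Of 39 fatty acid oxidation genes 18 rose and 5 fell (median 0.10), 3 falling without replicate 1, 3 or 4 at 48 hpf. The share risen was 46.2%, against 34.1% of all genes, and 13 rose without replicates 1 and 4 at 24 hpf (median 0.04). cpt1b, which carries fatty acids into muscle mitochondria, had 0.933 to 2.33 CPM at 24 hpf and 9.57 to 11.4 CPM at 48 hpf and rose 7.22-fold, acadm, a dehydrogenase of medium chains, rose 1.25-fold, and etfdh, an electron carrier gene, fell 1.41-fold.

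Sterol synthesis genes rose in 12 of 28 cases and fell in 4 (median 0.25). The share risen was 42.9%, against 34.1% of all genes. In the fit without replicates 1 and 4 at 24 hpf, 8 rose and 3 fell (median 0.14). hmgcra, the rate-limiting reductase, had 1.09, 0.933, 0.972 and 1.33 CPM at 24 hpf and 1.94, 4.58, 4.39 and 3.95 CPM at 48 hpf, the groups not overlapping (log2 fold change 1.78 ± 0.35 SE, adjusted p = 0.000224). hmgcs1 and tm7sf2, of earlier and later steps, rose 1.39-fold and 2.31-fold, and pmvk, a mevalonate pathway kinase gene, fell 1.57-fold.

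Contractile genes of skeletal muscle took more of the counts at 48 hpf, and single members went in both directions. Their share of all counts went from 2.88% ± 0.318 (SD, n = 4) to 6.34% ± 0.871. Of 71 tested sarcomere genes, 44 rose and 21 fell, with a median of 1.09, and 36 rose at least 2-fold. Of called members with at least 5 CPM in the higher group, those with the largest fall and rise were both fast troponin I genes. tnni2b.1 had 802, 651, 574 and 745 CPM at 24 hpf and 23, 21.1, 19.9 and 36.1 CPM at 48 hpf, and all 48 hpf libraries were far lower (log2 fold change -4.79 ± 0.18 SE, adjusted p = 2.93e-13). tnni2b.2, its neighbour in name, had 0.0265, 0.0259, 0 and 0.0266 CPM at 24 hpf and 51.5, 44.3, 44.1 and 74.8 CPM at 48 hpf, which is 3 reads over the 4 libraries at 24 hpf against 8779 at 48 hpf, a ratio of 2696 (95% counting interval 922 to 13074) (adjusted p = 1.66e-13). Opposite changes were also found in 2 troponin T genes picked after their values were seen. tnnt2c had 1180, 1042, 936 and 1080 CPM at 24 hpf and 47.7, 55, 47.9 and 50 CPM at 48 hpf (log2 fold change -4.40 ± 0.15 SE, adjusted p = 1.28e-13), and tnnt3b had 189, 134, 152 and 98.5 CPM at 24 hpf and 2430, 2776, 2314 and 3511 CPM at 48 hpf (log2 fold change 4.27 ± 0.18 SE, adjusted p = 1.88e-12). Both pairs consist of related sequences, and the handling of reads that match several places is not given, so the split between partners is uncertain.

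Among fast fibre genes, the fast myosin heavy chain gene myhz1.1 had 2168, 1773, 2439 and 1729 CPM at 24 hpf and 9006, 10485, 6479 and 9905 CPM at 48 hpf (log2 fold change 2.15 ± 0.18 SE, adjusted p = 1.00e-08). mylpfa, a fast regulatory light chain gene, rose 3.75-fold, actc1b (alpha actin) 2.19-fold, tpma (tropomyosin) 3.26-fold and myhz2 2.05-fold. The slow myosin gene smyhc1 had 2034 to 2514 CPM at 24 hpf and 1113 to 1247 CPM at 48 hpf and fell 1.86-fold, and the 3 smyhc genes together had 2536 CPM ± 227 (SD, n = 4) at 24 hpf and 1369 CPM ± 71.7 at 48 hpf. The myosin chaperone gene unc45b fell 6.39-fold and smyd1b, another gene of myosin assembly, fell 6.96-fold, both chosen after their values were seen.

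**Figure D3:**
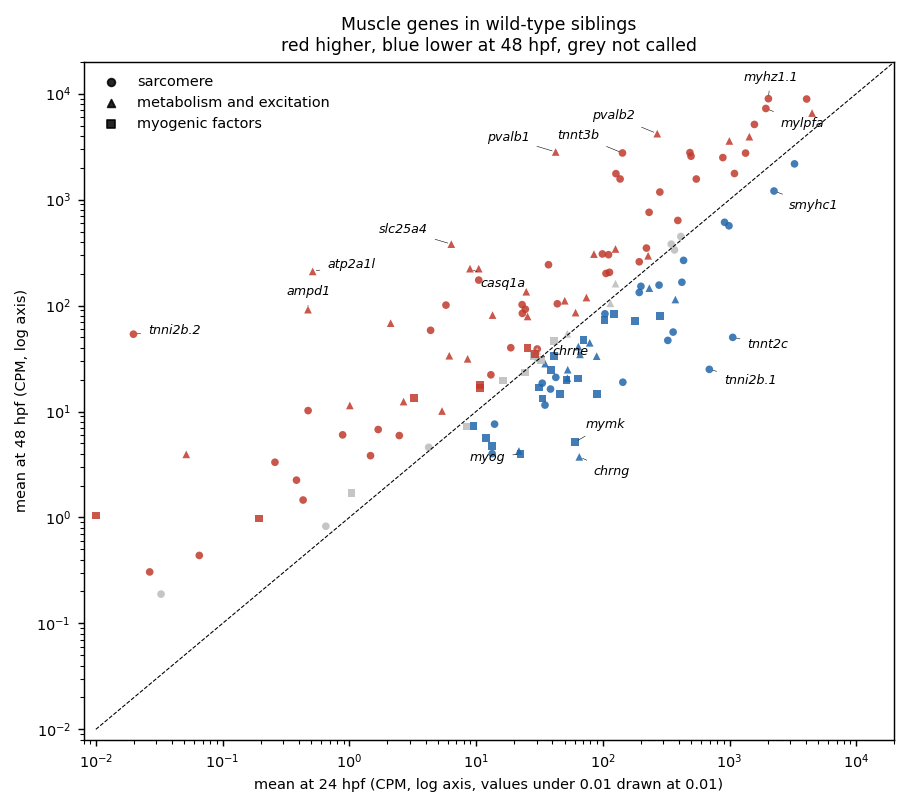
Mean level at 48 hpf against that at 24 hpf (CPM, log axes) for the tested genes of the sarcomere (circles), muscle metabolism and excitation (triangles) and myogenic factors (squares); red points were called higher at 48 hpf, blue lower, grey neither, and the dashed line marks equal levels. tnni2b.2, atp2a1l, ampd1, pvalb1 and slc25a4 lie far above the line and tnni2b.1, tnnt2c, chrng and mymk far below it.

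Genes of muscle metabolism and excitation rose in 26 of 42 tested cases and fell in 11 (median 1.02). pvalb1, a parvalbumin that takes up calcium to speed relaxation, had 55.8, 35.5, 47.4 and 31.1 CPM at 24 hpf and 2410, 2846, 2412 and 3602 CPM at 48 hpf (log2 fold change 6.05 ± 0.20 SE, adjusted p = 7.70e-14). pvalb2 had 238 to 324 CPM at 24 hpf and 3690 to 5348 CPM at 48 hpf and rose 15.6-fold, pvalb3 rose 4.61-fold, and the 4 parvalbumin genes pvalb1 to pvalb4 together went from 324 CPM ± 54.3 to 7245 CPM ± 1372 (SD, n = 4). The calcium pump gene atp2a1 was already abundant at 24 hpf and rose 1.46-fold, with overlapping groups, whereas its paralog atp2a1l had 0.397, 0.674, 0.614 and 0.373 CPM at 24 hpf and 186, 199, 151 and 303 CPM at 48 hpf (log2 fold change 8.66 ± 0.36 SE, adjusted p = 1.04e-12). The muscle creatine kinase gene ckma rose 3.59-fold. Of genes chosen after their values were seen, slc25a4, the ADP/ATP carrier, rose 59.5-fold, ampd1, the AMP deaminase of muscle, 193-fold, and casq1a, the calcium store protein, 24.9-fold. The acetylcholine receptor subunits differed, the embryonic gamma subunit gene chrng having 66.8, 70, 64.8 and 59.6 CPM at 24 hpf and 3.44, 3.65, 4.63 and 3.19 CPM at 48 hpf (log2 fold change -4.13 ± 0.35 SE, adjusted p = 1.04e-08) and the epsilon gene chrne, also picked afterwards, 28.3 to 35.2 CPM at 24 hpf and 27.6 to 37.4 CPM at 48 hpf with no call (adjusted p = 0.632).

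The factors that make new muscle fell in 18 of 32 tested cases and rose in 7 (median -0.44). mymk, the membrane protein by which myoblasts fuse, had 59.9, 64.9, 51.4 and 65 CPM at 24 hpf and 5.38, 4.96, 4.55 and 5.68 CPM at 48 hpf (log2 fold change -3.55 ± 0.15 SE, adjusted p = 1.25e-12). myog fell 5.63-fold, myod1 3.09-fold, myf5 2.81-fold and myf6 2.12-fold, all of them transcription factor genes of muscle commitment. pax7a, of muscle precursors, was not called (adjusted p = 0.451), and lbx1a, of migrating precursors and spinal interneurons, rose 4.15-fold.

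Heart genes were lower at 48 hpf more often than higher, 23 against 16 of 45 tested (median -0.50). The contractile genes myl7 (42.9, 40.9, 35.6 and 51 CPM at 24 hpf and 12.8, 3.27, 12.9 and 20.1 CPM at 48 hpf; log2 fold change -1.80 ± 0.61 SE, adjusted p = 0.0158) and tnnt2a (17 to 23.3 CPM at 24 hpf and 1.36 to 9.2 CPM at 48 hpf; 3.57-fold) fell. In both, replicate 2 at 48 hpf was the lowest library, and it was also lowest for myh6, nppa and nppb. Without replicates 1 and 4 at 24 hpf the fall of myl7 was not called (adjusted p = 0.0587). The ventricular myosin gene myh7 fell 2.25-fold. The atrial myosin gene myh6 fell 1.93-fold (adjusted p = 0.0397), a call that ended without replicate 2, 3 or 4 at 24 hpf or replicate 2 or 3 at 48 hpf (adjusted p 0.062 to 0.101). nkx2.5, a cardiac homeobox gene, fell 5.68-fold, and ryr2b, the calcium release channel, 5.32-fold. The natriuretic peptide genes, which mark the working chambers, rose. nppa had 0.053, 0.363, 0.128 and 0.266 CPM at 24 hpf and 16.3, 2.95, 14.4 and 11.8 CPM at 48 hpf (log2 fold change 5.79 ± 1.06 SE, adjusted p = 0.000125), and nppb rose 12.6-fold.

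Primitive erythrocytes gave 23 fallen and 17 risen genes of 50 tested (median -0.18), with the globins switching among themselves. The 9 embryonic globin genes together had 1606, 1946, 2110 and 2220 CPM at 24 hpf and 2254, 2477, 2709 and 2589 CPM at 48 hpf. hbbe3, an embryonic beta globin gene, had 447, 526, 585 and 639 CPM at 24 hpf and 104, 145, 155 and 120 CPM at 48 hpf (log2 fold change -2.06 ± 0.16 SE, adjusted p = 4.21e-09). hbae3, an alpha globin gene, had 381 to 526 CPM at 24 hpf and 675 to 794 CPM at 48 hpf and rose 1.62-fold, hbbe1.1, chosen after its values were seen, rose 1.76-fold, and hbae1.1 fell 1.83-fold. Globin genes resemble each other closely, which makes the single values uncertain. The erythroid regulators gata1a and blf fell 4.09-fold and 14.6-fold, and klf3 rose 4.52-fold. alas2 and slc4a1a, of haem synthesis and the red cell membrane, were not called (adjusted p = 0.257 and 0.449), while urod, another haem synthesis gene, picked after its values were seen, had 152, 220, 222 and 199 CPM at 24 hpf and 25.1, 30.8, 31.4 and 23 CPM at 48 hpf and fell 7.19-fold.

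Vessel genes stayed nearer to the background, 23 fallen and 14 risen of 58 (median -0.17). etv2, the factor that specifies endothelium, had 20.4, 23.1, 24.1 and 22.7 CPM at 24 hpf and 7.31, 7.32, 7.12 and 6.77 CPM at 48 hpf (log2 fold change -1.66 ± 0.09 SE, adjusted p = 6.32e-11). The endothelial receptor and adhesion genes kdrl and cdh5 were not called (adjusted p = 0.127 and 0.0831; cdh5 reached 0.0248 without replicate 4 at 24 hpf and 0.0402 under RLE scaling). The venous and lymphatic receptors stab1 and lyve1b were not called either (adjusted p = 0.0619 and 0.0562), although stab1 passed without replicate 1 at 24 hpf or replicate 2 or 3 at 48 hpf (adjusted p 0.0364 to 0.0477) and lyve1b without replicate 1 at 24 hpf (0.0193). gata2a rose 2.96-fold and crip2, a LIM protein gene, fell 5.99-fold. In the list of blood stem and lymphoid cells 9 of 23 rose and 7 fell (median 0.48). runx1, needed for blood stem cells to emerge, had 2.28, 2.57, 1.79 and 1.7 CPM at 24 hpf and 3.75, 4.23, 3.35 and 4.17 CPM at 48 hpf (log2 fold change 0.89 ± 0.23 SE, adjusted p = 0.00264), myb fell 1.99-fold, the lymphoid factor gene ikzf1 fell 4.13-fold, the leukocyte phosphatase gene ptprc rose 4.15-fold, and rag1 was not called (adjusted p = 0.944). bcl11ba, used in T cells and in neurons and skin, rose 10.1-fold, and tcf7 fell 2.9-fold.

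Genes of innate immune cells rose in most cases. Of 54 tested genes of macrophages and neutrophils, 31 rose and 4 fell (median 1.37), with 2 fallen without replicate 1 or 2 at 24 hpf or replicate 3 at 48 hpf. mpx, the neutrophil peroxidase, had 1.75, 2.8, 3.89 and 2.56 CPM at 24 hpf and 23.2, 22.7, 31.2 and 29.1 CPM at 48 hpf (log2 fold change 3.27 ± 0.31 SE, adjusted p = 5.10e-08), and the neutrophil protease gene npsn rose 11.8-fold. lyz (lysozyme) had 0 to 0.132 CPM at 24 hpf and 0.976 to 1.84 CPM at 48 hpf and mpeg1.1, a macrophage perforin gene, 0.46 to 0.674 CPM at 24 hpf and 3.95 to 6.73 CPM at 48 hpf, rising by 4.22 and 3.37 on the log2 scale. lcp1, common to leukocytes, rose 1.81-fold, but not without replicates 1 and 4 at 24 hpf (adjusted p = 0.128). marco, a macrophage scavenger receptor gene chosen after its values were seen, was counted in 2 reads at 24 hpf and in 250 at 48 hpf, a ratio of 115 (95% counting interval 31.5 to 956). Of 33 complement genes 7 rose and 1 fell (median 1.25), a share of rises under that of all genes (21.2% against 34.1%). The number risen was 14 without replicate 3 at 24 hpf. It was 4 without both replicates 1 and 4 at 24 hpf, where the median was 0.44. masp1, which starts the lectin pathway, rose 6.34-fold, and 2 genes fell without replicate 1 at 48 hpf. c6 was not called (adjusted p = 0.347), nor was c9, with 2.86, 12.2, 36.4 and 1.06 CPM at 24 hpf and 41.9, 40.7, 28.6 and 25.1 CPM at 48 hpf (adjusted p = 0.209, and 0.0286 without replicate 3 at 24 hpf).

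The lens showed the largest rises of all lists. Of 60 tested genes of crystallins and lens fibres, 55 rose and none fell, with a median log2 fold change of 5.93, and 53 rose at least 2-fold. Under RLE scaling, in DESeq2 and with the filter of 1 CPM in 4 libraries, 1 fell. Under RLE scaling, in DESeq2, with the stricter filter, or without replicate 3 at 48 hpf, 1 member fell. The 55 crystallin genes of the file together took 0.00779% ± 0.00226 (SD, n = 4) of counts at 24 hpf and 0.679% ± 0.0938 at 48 hpf, and in CPM their sum was 83.2 times as high. The 19 crygm2d genes, which encode the gamma crystallins of the fish lens, had 105, 106, 66 and 14 reads in the 4 libraries at 24 hpf and 138120, 128213, 152222 and 163701 reads at 48 hpf. Their summed CPM was 1864 times as high at 48 hpf.

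Members of that family are close copies of each other, so single values are uncertain. crygm2d9 had no read at 24 hpf and 22140 reads at 48 hpf (109 to 197 CPM), at least 6798-fold higher with a floor of 3 reads for the 24 hpf group, and crygm2d16 was at least 2507-fold higher by the same floor. crygm2d4, crygm2d2, crygm2d5, crygm2d14 and crygm2d15 were counted in 1 or 2 reads at 24 hpf. Their ratios ran from 5471 (crygm2d15, 95% counting interval 1514 to 45184) to 15930 (crygm2d4, 4410 to 131546). crygm2d3 had 0 to 0.205 CPM at 24 hpf and 227 to 335 CPM at 48 hpf, crygm2d20 0 to 0.155 CPM at 24 hpf and 178 to 261 CPM at 48 hpf and crygm2d21 0.0518 to 0.212 CPM at 24 hpf and 224 to 327 CPM at 48 hpf. The anchor of the family, crygm2d1, had 0.053, 0.415, 0.0511 and 0 CPM at 24 hpf and 257, 264, 258 and 361 CPM at 48 hpf, and its fitted log2 fold change of 11.06 was 12.87 without replicate 2 at 24 hpf. For crygm2d3 the fitted value was 12.24, or 16.41 without replicate 3 at 24 hpf, which held all its reads of that age.

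Other crystallins separated the ages as well. crybb1, a beta crystallin gene already counted at 24 hpf, had 13.5, 9.51, 10.4 and 6.95 CPM at 24 hpf and 323, 211, 264 and 321 CPM at 48 hpf (log2 fold change 4.79 ± 0.21 SE, adjusted p = 2.99e-12). cryaa, the alpha crystallin chaperone gene of the lens, had 0, 0.155, 0.205 and 0 CPM at 24 hpf and 40.1, 25.2, 31.2 and 32.3 CPM at 48 hpf (log2 fold change 8.41 ± 0.43 SE, adjusted p = 1.71e-11; 9.15 without replicate 3 at 24 hpf). cryaba, the other alpha crystallin gene, was counted in 2 reads in all 8 libraries and was not tested.

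In the retina the regulators of photoreceptor fate rose while the opsins were scarcely detected. Of 64 tested genes of photoreceptors and the visual cycle, 36 rose and 3 fell (median 1.07). crx, the homeobox gene of photoreceptor precursors, had 0.874, 1.27, 1.89 and 1.17 CPM at 24 hpf and 74.4, 72.1, 70.2 and 99.5 CPM at 48 hpf (log2 fold change 5.92 ± 0.24 SE, adjusted p = 7.50e-13), and otx5, its relative, picked after its values were seen, rose 46.6-fold. six7, used in cones, had 0 to 0.586 CPM at 24 hpf and 24.5 to 29.3 CPM at 48 hpf (log2 fold change 6.70 ± 0.39 SE, adjusted p = 6.99e-11; 7.43 without replicate 4 at 24 hpf). rpe65a, the isomerase of the visual cycle in the pigment epithelium, rose 3.32-fold. rho, the rod opsin gene, had 0.053, 0, 0 and 0 CPM at 24 hpf and 1.4, 1.54, 0.665 and 2.65 CPM at 48 hpf, which is 2 reads against 252, a ratio of 116 (95% counting interval 31.8 to 964). opn1sw1, a cone opsin gene, had no read at 24 hpf and 2, 0, 0 and 8 reads at 48 hpf. opn1sw2, the blue cone opsin gene, had 0.45 to 1.17 CPM at 24 hpf and 0.222 to 0.568 CPM at 48 hpf and fell (log2 fold change -1.10 ± 0.40 SE, adjusted p = 0.0225), but not without replicate 3 or 4 at 24 hpf or replicate 2 or 3 at 48 hpf (adjusted p 0.0591 to 0.0759). With the stricter filter, which removes genes of such levels, no member fell. Of the transducins, gnat1 was not called (adjusted p = 0.0896), and gnat2 rose 1.86-fold at an adjusted p of 0.0423, a call that ended without replicate 1, 2 or 4 at 24 hpf or replicate 1, 2 or 3 at 48 hpf (0.0619 to 0.148).

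Genes of retinal progenitors and of ganglion, amacrine and bipolar cells rose in 34 of 46 cases and fell in 7 (median 1.16). atoh7, which makes progenitors competent to form ganglion cells, had 0.212, 0.104, 0 and 0 CPM at 24 hpf and 13.9, 19, 17.5 and 15 CPM at 48 hpf, and no library at 24 hpf passed 0.212 CPM (log2 fold change 7.65 ± 0.55 SE, adjusted p = 1.34e-09; 8.76 without replicate 1 at 24 hpf). The ganglion cell factor gene pou4f2 and the bipolar cell factor gene vsx1, both picked after their values were seen, rose by 3.91 and 4.24 on the log2 scale. The glutamate transporter gene slc1a3a fell 3.31-fold.

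Genes of neurons rose almost throughout. Of 102 tested genes of the neuronal cytoskeleton and synapse, 97 rose and 2 fell, with a median of 1.91, and 88 rose at least 2-fold. elavl3, an RNA-binding protein of young neurons, had 254, 275, 252 and 253 CPM at 24 hpf and 838, 764, 829 and 726 CPM at 48 hpf (log2 fold change 1.61 ± 0.09 SE, adjusted p = 3.49e-11). snap25a and syt1a, which release and time synaptic vesicles, had 40.5 to 46.5 CPM at 24 hpf and 154 to 169 CPM at 48 hpf and 21.1 to 22.5 CPM at 24 hpf and 102 to 120 CPM at 48 hpf, rises of 3.62-fold and 4.97-fold. gap43, of growing axons, rose 3.27-fold, and the neurofilament gene neflb, of larger axons, had 0.901, 1.55, 0.511 and 0.798 CPM at 24 hpf and 32.1, 28, 30.7 and 34.2 CPM at 48 hpf (log2 fold change 5.05 ± 0.35 SE, adjusted p = 8.15e-10). stmn3, a microtubule regulator, fell 1.49-fold with overlapping groups. The count fallen was 1 without replicate 2 or 3 at 24 hpf or replicate 2 or 4 at 48 hpf.

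Transmitter genes rose in 32 of 38 tested cases and fell in 1 (median 2.12). The glutamate transporter gene slc17a6b had 19.3 to 22.5 CPM at 24 hpf and 67.4 to 79 CPM at 48 hpf and rose 3.54-fold. For the inhibitory transmitters, gad1b and gad2, which make GABA, rose 7.95-fold and 8.05-fold, and slc32a1, which loads GABA and glycine into vesicles, rose 5.61-fold. slc6a1a, which takes GABA back up, had 1.22, 0.57, 0.946 and 0.426 CPM at 24 hpf and 27.3, 29, 29 and 25.8 CPM at 48 hpf (log2 fold change 5.13 ± 0.26 SE, adjusted p = 1.16e-11). The cholinergic gene chata rose 7.2-fold, the catecholamine gene th 2.6-fold and the serotonin gene tph2 4.09-fold. Of 124 transmitter receptor genes 89 rose and 7 fell (median 1.61). grin1b, an NMDA receptor subunit, had 0.212, 0.207, 0.895 and 0.293 CPM at 24 hpf and 25.5, 23, 25.3 and 20.5 CPM at 48 hpf (log2 fold change 5.86 ± 0.34 SE, adjusted p = 7.58e-11; 6.59 without replicate 3 at 24 hpf). Of receptor genes chosen after their values were seen, the glycine receptor gene glra1 rose 20.5-fold and the AMPA receptor gene gria2b 10.9-fold. adrb2b, an adrenergic receptor gene, fell 2.98-fold. Voltage-gated channels rose in 61 of 96 cases and fell in 6 (median 1.35), from the sodium channel subunit gene scn4ba (24.1-fold higher) to the potassium channel gene kcnh6a (2.92-fold lower).

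Neural progenitor and Notch genes were balanced, 25 risen and 25 fallen of 64 (median -0.06). sox19a, an early SoxB1 gene of the neural plate, had 401, 369, 354 and 431 CPM at 24 hpf and 103, 109, 118 and 120 CPM at 48 hpf (log2 fold change -1.79 ± 0.09 SE, adjusted p = 7.64e-12), and sox2 fell 1.48-fold. her2, a Notch target, fell 4.01-fold, and her4.1, another target, rose 2.78-fold. hes2.2 rose 12.7-fold. The proneural gene ascl1a rose 1.42-fold, and neurog1 and the Notch ligand gene dla were not called (adjusted p = 0.73 and 0.257).

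Glial genes rose in 16 of 30 cases and fell in 7 (median 0.48). slc1a3b, a glutamate transporter of radial glia, had 4.45, 4.12, 3.68 and 5.8 CPM at 24 hpf and 122, 113, 122 and 124 CPM at 48 hpf (log2 fold change 4.74 ± 0.18 SE, adjusted p = 3.27e-13). The related transporter gene slc1a2b and the radial glial fatty acid binding gene fabp7a, picked after their values were seen, rose 10.7-fold and 8.46-fold, and gfap was not called (adjusted p = 0.93). Of the myelin genes, mpz and plp1a fell 4.36-fold and 1.5-fold, and mbpa was counted in no read at 24 hpf and 4, 2, 8 and 2 reads at 48 hpf. egr2b, a gene of hindbrain segments and Schwann cells, had 9.3, 7.83, 8 and 9.98 CPM at 24 hpf and 0.678, 0.561, 0.355 and 0.595 CPM at 48 hpf (adjusted p = 7.16e-11).

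Regional factors of the brain rose in 34 of 61 cases and fell in 15 (median 0.43). foxg1b had 1.59, 1.97, 1.53 and 2.66 CPM at 24 hpf and 38, 43.8, 42.4 and 45.3 CPM at 48 hpf (log2 fold change 4.45 ± 0.21 SE, adjusted p = 5.52e-12), whereas its paralog foxg1a, of the forebrain, and nkx2.1, of the ventral forebrain and thyroid, were not called (adjusted p = 0.621 and 0.196). otx2b, of forebrain, midbrain and eye, rose 3.22-fold, pax2a rose 1.94-fold, and en2a, of the midbrain-hindbrain boundary, fell 1.44-fold. In the inner ear and lateral line 21 of 45 genes rose and 9 fell (median 0.74). oc90, a matrix protein of the otolith, had 112, 126, 120 and 124 CPM at 24 hpf and 4.92, 6.87, 5.41 and 4.41 CPM at 48 hpf (log2 fold change -4.48 ± 0.15 SE, adjusted p = 8.10e-14), whereas the otolith gene otomp was not called (adjusted p = 0.458). tectb, of the tectorial membranes, rose 6.45-fold, and the hair cell factor gene atoh1a fell 1.7-fold. The hair cell myosin gene myo7aa was not called (adjusted p = 0.0533), but it was lower without replicate 1 or 4 at 48 hpf (0.00689 to 0.0418), in DESeq2 (0.0258), and under RLE or upper-quartile scaling (0.0357 and 0.0424). pvalb9 had 4.61, 15.5, 36.8 and 2.29 CPM at 24 hpf and 53.8, 49.4, 33.9 and 43 CPM at 48 hpf, in the order of libraries shown by the apolipoprotein genes below, and was not called (adjusted p = 0.123), but was called without replicate 3 at 24 hpf (0.0273) and in the fit of the 8 wild-type libraries alone (0.0425). Of 10 olfactory genes 9 rose and none fell (median 1.95), with 1 fallen without replicate 3 at 48 hpf. ompa, the olfactory marker protein gene, had no read at 24 hpf and 66 at 48 hpf, at least 20.3-fold higher, and calb2b rose 3.88-fold.

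**Figure D4:**
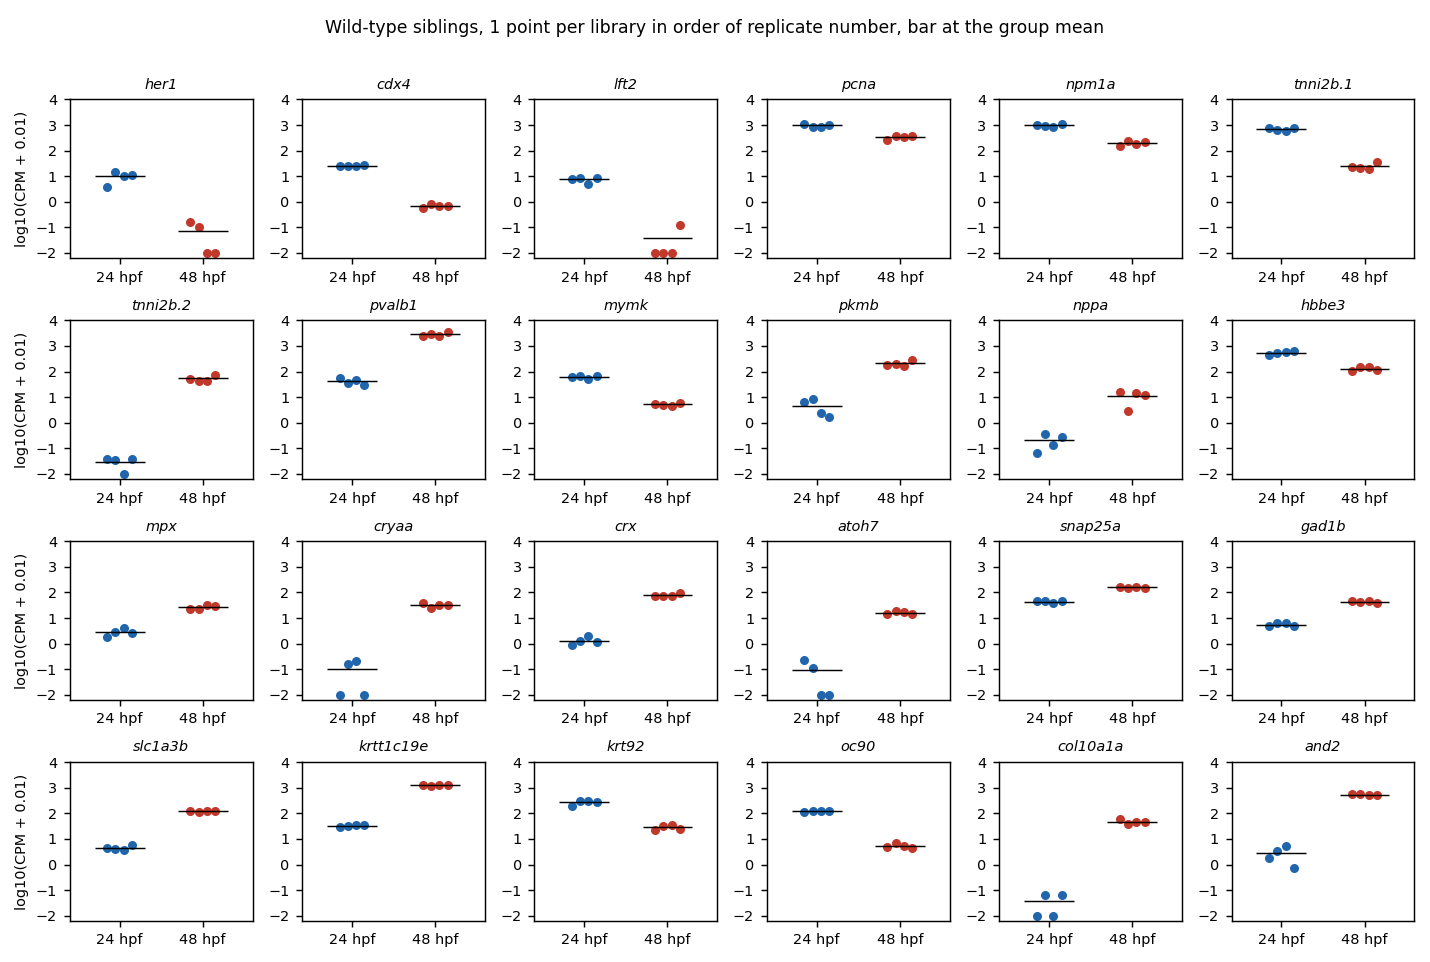
Level of 24 genes in each of the 8 wild-type libraries, as log10 of CPM plus 0.01, with 24 hpf in blue, 48 hpf in red, points in order of replicate number and a bar at the group mean. No gene drawn has overlapping groups; her1, cdx4, lft2, pcna, npm1a, tnni2b.1, mymk, hbbe3, krt92 and oc90 are lower at 48 hpf and the others higher.

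In the skin some keratin genes rose steeply and others fell, while several general epidermal markers were not called. Of 61 tested genes of epidermis and periderm, 27 rose and 13 fell (median 0.22), and without replicates 1 and 4 at 24 hpf 20 rose and 23 fell. krtt1c19e, a keratin of basal epidermal cells, had 29.5, 32.7, 35.8 and 34.8 CPM at 24 hpf and 1280, 1167, 1297 and 1267 CPM at 48 hpf, all libraries of 1 age lying close together (log2 fold change 5.24 ± 0.13 SE, adjusted p = 9.71e-15). krt91, a keratin gene, and col17a1a, a collagen of the attachment of skin to its basement membrane, both picked after their values were seen, rose 24.2-fold and 139-fold. krt92 had 197, 299, 317 and 287 CPM at 24 hpf and 23.2, 32.4, 34.3 and 24.3 CPM at 48 hpf (log2 fold change -3.27 ± 0.18 SE, adjusted p = 3.66e-11). The periderm keratin genes krt4 and cyt1 rose 1.42-fold and 1.47-fold, with overlapping groups for krt4, and neither was called without replicates 1 and 4 at 24 hpf (adjusted p = 0.192 and 0.195). tp63, the regulator of basal epidermis, cldne, a periderm claudin gene, and krt5 were not called (adjusted p = 0.238, 0.871 and 0.439, the last 0.0381 without replicate 1 at 24 hpf). muc5.1, a mucin of goblet cells, had 0.636, 0.803, 2.89 and 0.692 CPM at 24 hpf and 97.3, 78.5, 120 and 84.8 CPM at 48 hpf (log2 fold change 6.23 ± 0.49 SE, adjusted p = 4.14e-09; 7.03 without replicate 3 at 24 hpf).

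Ionocytes, the skin cells that exchange ions with the water, gave 21 risen and 7 fallen genes of 37 (median 0.89). slc12a10.2, the sodium chloride cotransporter gene of 1 ionocyte type, had 0.106, 0.181, 0.307 and 0.293 CPM at 24 hpf and 8.38, 6.69, 8.43 and 6.79 CPM at 48 hpf (log2 fold change 5.07 ± 0.29 SE, adjusted p = 7.27e-11). Replicate 1 at 24 hpf was lowest for the regulators foxi3a and gcm2 and for the calcium channel gene trpv6. gcm2 and trpv6 rose 2.76-fold and 3.68-fold, and foxi3a was not called (adjusted p = 0.0879, 0.0323 without replicate 2 at 24 hpf). The call of trpv6 ended without replicates 1 and 4 at 24 hpf (adjusted p = 0.0529). Of the ammonium transporter genes, rhcgb had 0 to 0.106 CPM at 24 hpf and 0.0969 to 1.41 CPM at 48 hpf and rose (log2 fold change 3.30 ± 1.03 SE, adjusted p = 0.0117), but not without replicate 4 at 48 hpf (adjusted p = 0.0725). rhbg, picked after its values were seen, had 1.11, 3.63, 6.24 and 0.798 CPM at 24 hpf and 84.2, 95.8, 84.4 and 88 CPM at 48 hpf (log2 fold change 4.90 ± 0.75 SE, adjusted p = 1.73e-05; 5.55 without replicate 3 at 24 hpf). slc12a3, also a kidney transporter gene, fell 4.57-fold.

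Of 25 melanophore genes 14 rose and 3 fell (median 0.58). pmela, which forms the melanosome fibres, had 71.2, 67.6, 64.7 and 62.6 CPM at 24 hpf and 141, 143, 143 and 169 CPM at 48 hpf (log2 fold change 1.16 ± 0.09 SE, adjusted p = 6.19e-09), and dct, a melanin enzyme gene, rose 2.4-fold. tyr (tyrosinase) was not called (adjusted p = 0.233), mitfa, the master regulator of melanophores, fell 1.77-fold, and gpnmb rose 24-fold. Of 36 genes of xanthophores and iridophores 23 rose and 10 fell (median 0.78). gch2 and xdh, of pteridine synthesis, rose 2.96-fold and 10.4-fold, and the xanthophore gene aox5 1.74-fold. The purine gene pnp4a and the receptor gene ltk of iridophores rose 3.09-fold and 3.3-fold, defbl1 had 0.795, 0.985, 0.69 and 0.479 CPM at 24 hpf and 33, 31.7, 25.7 and 26.8 CPM at 48 hpf (log2 fold change 5.31 ± 0.24 SE, adjusted p = 3.93e-12), and gart, of purine synthesis, fell 3.42-fold.

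Neural crest genes were evenly split, 14 risen and 14 fallen of 31, with a median of 0.03 that was -0.00 under RLE scaling. crestin, a marker of migrating crest, had 5.38, 5.34, 2.61 and 2.77 CPM at 24 hpf and 0.242, 0.841, 0.288 and 0.704 CPM at 48 hpf (log2 fold change -2.95 ± 0.48 SE, adjusted p = 3.67e-05), foxd3 fell 2.01-fold and sox10 1.52-fold, and nr2f5, a nuclear receptor gene of head mesenchyme, fell 3.75-fold. phox2bb, of autonomic and enteric neurons, rose 1.95-fold, and tfap2b rose 5.32-fold.

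The skeleton and its matrix rose. Of 50 tested cartilage and bone genes 33 rose and 10 fell (median 0.81). col10a1a, a collagen of hypertrophic cartilage and bone-forming cells, had 0, 0.0518, 0 and 0.0532 CPM at 24 hpf and 60.7, 40.2, 46.4 and 44.2 CPM at 48 hpf, which is 4 reads at 24 hpf against 7952 at 48 hpf (log2 fold change 10.68 ± 0.49 SE, adjusted p = 4.25e-12). matn1, a cartilage matrix gene, had 0, 0, 0.0511 and 0.213 CPM at 24 hpf and 2.59, 1.66, 3.39 and 4.09 CPM at 48 hpf (log2 fold change 5.42 ± 0.88 SE, adjusted p = 3.49e-05; 7.17 without replicate 4 at 24 hpf), and matn3a, picked after its values were seen, rose from 0.0511 to 0.212 CPM at 24 hpf and 74.4 to 97.8 CPM at 48 hpf (log2 fold change 9.85 ± 0.37 SE, adjusted p = 3.91e-13; 10.63 without replicate 1 at 24 hpf). acana (aggrecan) rose 2.57-fold, the cartilage regulator gene sox9a 1.45-fold and col11a2 1.49-fold. col2a1a, shared by notochord and cartilage, was not called (adjusted p = 0.664). sp7, a regulator of bone-forming cells, fell 1.49-fold (adjusted p = 0.0389), and the call ended without replicate 2 or 3 at 24 hpf or replicate 2, 3 or 4 at 48 hpf (0.0503 to 0.169). A gene with no symbol but the clone name si:ch211-43f4.1 fell 4.78-fold, the most of the list. Among 53 collagen genes 36 rose and 10 fell (median 0.62). The type I genes col1a1a and col1a2 had 977, 937, 971 and 865 CPM at 24 hpf and 3185, 3075, 3316 and 3490 CPM at 48 hpf (log2 fold change 1.80 ± 0.08 SE, adjusted p = 1.39e-12) and a 2.43-fold rise, and col5a3a fell 8.49-fold.

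In the fin fold and limb bud list 19 of 40 genes rose and 13 fell (median 0.26), and without replicates 1 and 4 at 24 hpf 12 rose and 16 fell. The actinodin genes, whose proteins make the fibrils of the fin fold, rose most. and2 had 1.72, 3.37, 5.37 and 0.692 CPM at 24 hpf and 551, 553, 518 and 543 CPM at 48 hpf (log2 fold change 7.59 ± 0.40 SE, adjusted p = 2.17e-11), and3 rose 304-fold, and and1 had 2.24 to 18.9 CPM at 24 hpf and 446 to 488 CPM at 48 hpf (log2 fold change 5.67 ± 0.44 SE, adjusted p = 3.93e-09; 6.26 without replicate 3 at 24 hpf). In each of the 3, replicate 4 was the lowest library at 24 hpf. tbx5a, of the pectoral fin bud, was not called (adjusted p = 0.0721, 0.0488 without replicate 4 at 24 hpf), and sall4 fell 4.25-fold.

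Genes of the yolk syncytial layer and liver differed more between the 24 hpf libraries than most of them did between the ages. apoa1a, the main protein of high density lipoprotein, had 46.1, 172, 383 and 16.9 CPM at 24 hpf and 617, 498, 398 and 442 CPM at 48 hpf. Replicate 3 at 24 hpf was highest and replicate 4 lowest in apoa1a, apoa1b, apoa2, apoa4b.1, apoba, apoeb, mttp, tfa, serpina1 and fgb alike, in the order 3, 2, 1, 4. That order was not confined to such genes. It also held for and2, pvalb9 and mt2, and along the first principal component over all genes tested, given below. hnf4a, another yolk syncytial layer gene, was instead highest in replicate 4 at 24 hpf. The mean log2 CPM over the yolk syncytial layer genes was 3.65, 4.96, 5.83 and 2.02 in replicates 1 to 4 at 24 hpf and 6.02, 5.75, 5.37 and 5.57 at 48 hpf (exact permutation test over 70 assignments, two-sided, p = 0.114). Of 30 tested genes of lipoproteins and their receptors 7 rose and 5 fell (median 0.63). The number risen was 4 without replicate 1, 2 or 4 at 24 hpf or replicate 1 at 48 hpf, 11 without replicate 3 at 24 hpf, and 3 without both replicates 1 and 4 at 24 hpf, where the median was -0.10.

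None of the 7 anchor genes of lipoproteins was called with all libraries. apoa2 had 35.4, 142, 306 and 13.9 CPM at 24 hpf and 752, 620, 478 and 584 CPM at 48 hpf with an adjusted p of 0.056, apoa1a one of 0.141, apoa1b 0.182, apoa4b.1 0.29, apoba 0.647, apoeb 0.535 and mttp, which loads lipid on apolipoprotein B, 0.161. Without replicate 3 at 24 hpf the adjusted p was 0.0382 for apoa1a, 0.0185 for apoa2 and 0.0146 for mttp. apoa2 was also called in DESeq2 (adjusted p = 0.0473), with no filter (0.0469) and in the fit of the 8 wild-type libraries (0.0148). apoda.1, a lipocalin gene outside the yolk, had 0.636, 0.622, 0.921 and 0.639 CPM at 24 hpf and 17, 18, 18.5 and 18.1 CPM at 48 hpf (log2 fold change 4.66 ± 0.30 SE, adjusted p = 2.61e-10). lpl, the lipase that unloads lipoproteins, had 87.6, 89.2, 78 and 96 CPM at 24 hpf and 39.1, 45.8, 45.2 and 46.2 CPM at 48 hpf and fell by 0.99 on the log2 scale (adjusted p = 6.23e-08). In the mutants its log2 fold change was 0.49, and this difference between genotypes was called (interaction, adjusted p = 1.81e-05).

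**Figure D5:**
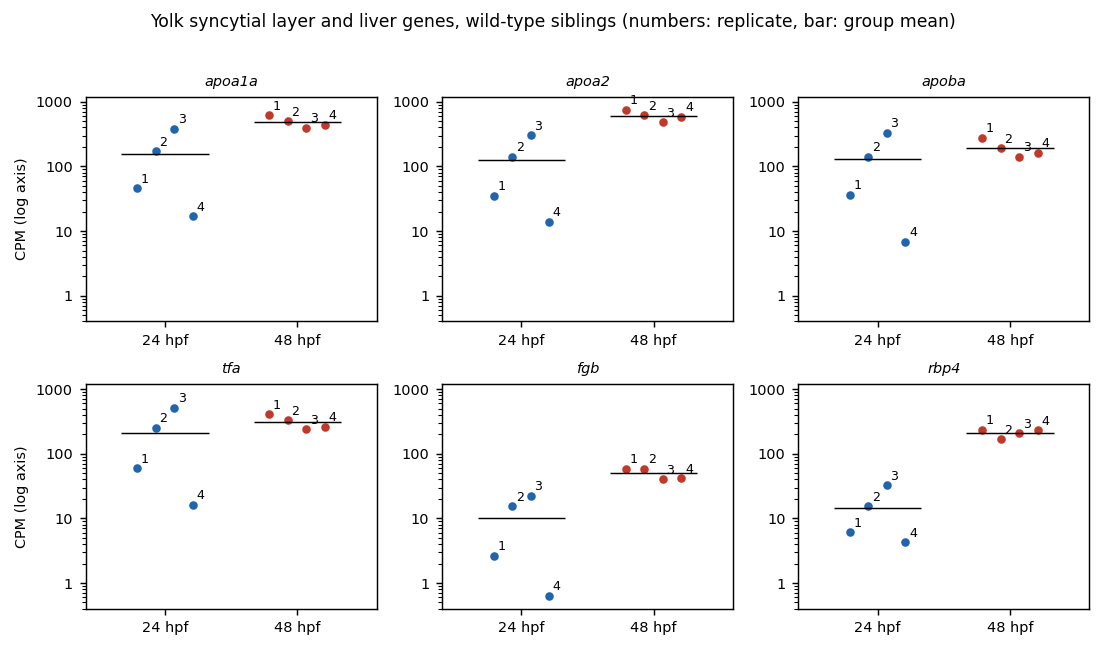
Level of 6 genes of the yolk syncytial layer and liver in each wild-type library (CPM, log axis), points numbered by replicate with a bar at the group mean. At 24 hpf the libraries spread in the order 3, 2, 1, 4 from high to low, while the lowest 48 hpf library of rbp4, at 167 CPM, is well above the highest 24 hpf library, at 32.3 CPM.

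Plasma protein and hepatocyte genes rose in 19 of 40 cases (47.5%, against 34.1% of all genes) and fell in 1 (median 1.62). Without replicates 1 and 4 at 24 hpf 11 rose and 1 fell (median 0.82). Over all genes, that fit called 6713 higher, against 8290 with all libraries. Without replicate 2 at 48 hpf 2 genes fell. rbp4, the carrier of retinol, picked after its values were seen, had 6.07, 15.3, 32.3 and 4.31 CPM at 24 hpf and 234, 167, 207 and 229 CPM at 48 hpf, every 48 hpf library far above (log2 fold change 3.85 ± 0.73 SE, adjusted p = 0.000183; 4.59 without replicate 3 at 24 hpf, and 3.08 without both replicates 1 and 4). vtna (vitronectin) had 0.106 to 1.48 CPM at 24 hpf and 7.45 to 13.6 CPM at 48 hpf (log2 fold change 3.93 ± 0.69 SE, adjusted p = 8.09e-05; 4.79 without replicate 3 at 24 hpf). fgb (fibrinogen) had 2.65, 15.5, 22.4 and 0.639 CPM at 24 hpf and 58.2, 58.8, 40.3 and 41.6 CPM at 48 hpf, and its call (adjusted p = 0.0396) ended without any 1 library other than replicate 3 at 24 hpf (0.05 to 0.0991), while its log2 fold change of 2.27 was 2.96 without that library. tfa (transferrin) and serpina1 were not called (adjusted p = 0.644 and 0.307). The hepatocyte gene fabp10a was counted in 0, 0, 8 and 2 reads at 24 hpf and 0, 16, 2 and 2 at 48 hpf, too few to be tested, and ttr (transthyretin) in 3, 14, 4 and 6 and 3, 6, 4 and 9 reads.

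Transcription factors of liver and endoderm were divided, 7 risen and 8 fallen of 24 (median 0.15, or -0.40 without replicates 1 and 4 at 24 hpf). hnf4a, which controls lipoprotein genes, had 1.32, 2.12, 2.48 and 2.5 CPM at 24 hpf and 6.51, 4.11, 3.72 and 1.89 CPM at 48 hpf and rose (log2 fold change 0.95 ± 0.35 SE, adjusted p = 0.0271), but not without replicate 1 or 2 at 24 hpf or replicate 1 at 48 hpf (adjusted p 0.0507 to 0.151). cdx1b, of the intestine, rose 10.5-fold, and cebpd 3.66-fold. hhex, of early liver and pancreas, fell 2.44-fold, gata5 fell 2.47-fold, and foxa3 was not called (adjusted p = 0.17).

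In the intestine 10 of 25 genes rose (40%, against 34.1% of all genes) and 5 fell (median 0.71). pyya, a peptide hormone of gut endocrine cells, had 0.106, 0.415, 0.307 and 0.266 CPM at 24 hpf and 8.91, 9.49, 10.4 and 9.8 CPM at 48 hpf (log2 fold change 5.12 ± 0.31 SE, adjusted p = 1.20e-10). vil1 (villin) and cldn15la, a claudin gene, of the gut lining rose, from 0 to 0.53 CPM at 24 hpf and 1.2 to 1.87 CPM at 48 hpf and from 0.0518 to 0.818 CPM at 24 hpf and 1.64 to 2.37 CPM at 48 hpf (log2 fold changes 2.64 and 2.69, moving to 3.40 without replicate 1 and to 3.79 without replicate 3 at 24 hpf). fabp2, also a gene of the yolk syncytial layer, was not called (adjusted p = 0.322), and cldnc fell 2.56-fold. Of 11 exocrine pancreas genes 3 rose and 5 fell (median -1.01). ptf1a, of exocrine precursors and hindbrain neurons, rose 4.31-fold. cpa5, a carboxypeptidase gene, was counted in 2 reads at 24 hpf and 390 at 48 hpf, a ratio of 180 (95% counting interval 49.4 to 1489). prss1 (trypsin) was not called (adjusted p = 0.336), and prss59.2 had no read in any library.

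Endocrine pancreas genes rose in 10 of 20 cases and fell in 3 (median 0.51), the latter count being 7 without replicate 2 at 48 hpf. ins (insulin) had 1.91, 1.61, 1.56 and 2.13 CPM at 24 hpf and 0, 3.65, 0.0222 and 0 CPM at 48 hpf, so that 1 of the 48 hpf libraries was above every other and the other 3 were near 0. gcga (glucagon) had 0.106, 0.181, 0.384 and 0.186 CPM at 24 hpf and 0, 1.82, 0 and 0 CPM at 48 hpf, again high in replicate 2 at 48 hpf only. Neither was called (adjusted p = 0.43 and 0.449), and without that library both were lower at 48 hpf (log2 fold changes -7.34 and -6.16, adjusted p = 6.29e-07 and 0.00186). For gcga that leaves 33 reads at 24 hpf against none at 48 hpf, so the size of its fitted fall is uncertain. sst1.1 (somatostatin) rose 4.86-fold, pcsk1, a prohormone convertase gene, 5.74-fold, and nkx6.2, shared with the spinal cord, fell 2.09-fold.

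Hormone genes were low at both ages and rose in 18 of 35 cases, 7 falling (median 1.14). prl (prolactin) had 0.954, 1.3, 1.28 and 0.905 CPM at 24 hpf and 4.48, 5.61, 6.39 and 5.03 CPM at 48 hpf (log2 fold change 2.28 ± 0.22 SE, adjusted p = 6.12e-08). star, which brings cholesterol into mitochondria for steroid synthesis, had 0.424, 0.104, 0.46 and 0.106 CPM at 24 hpf and 7.02, 5.68, 4.86 and 6.2 CPM at 48 hpf (log2 fold change 4.42 ± 0.37 SE, adjusted p = 9.22e-09). Of steroid enzyme genes picked after their values were seen, cyp21a2 rose 17.7-fold, and cyp11a1 had 0.159, 1.97, 2.66 and 0.106 CPM at 24 hpf and 0.0969, 0.28, 0.177 and 0.162 CPM at 48 hpf and fell (adjusted p = 0.0187, but 0.0774 without replicate 3 at 24 hpf). pomca, the corticotropin precursor gene, rose from 0 to 0.358 CPM at 24 hpf and 0.217 to 0.63 CPM at 48 hpf (log2 fold change 1.92 ± 0.82 SE, adjusted p = 0.0491), a call that ended without replicate 1, 2 or 4 at 24 hpf or replicate 1, 2 or 3 at 48 hpf (adjusted p 0.0533 to 0.134), with a log2 fold change of 4.27 without replicate 3 at 24 hpf. dio3b, which inactivates thyroid hormone, fell 1.37-fold (adjusted p = 0.0423), but not without replicate 1, 3 or 4 at 24 hpf or replicate 3 or 4 at 48 hpf (0.0529 to 0.129). gh1 and tg, of growth hormone and thyroglobulin, were not called (adjusted p = 0.0729 and 0.116, the latter 0.0349 without replicate 1 at 24 hpf).

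Neuropeptide genes rose in 23 of 32 cases and fell in 3 (median 2.14). adcyap1b, a neuropeptide of the PACAP family, had a mean of 13.2 ± 2.06 CPM (SD, n = 4) at 24 hpf and 73.1 ± 2.57 CPM (SD, n = 4) at 48 hpf (log2 fold change 2.47 ± 0.10 SE, adjusted p = 8.87e-13). oxt (oxytocin) had no read at 24 hpf and 35 reads at 48 hpf, at least 10.7-fold higher, and avp (vasopressin) had 0, 0, 5 and 0 reads at 24 hpf and 6, 8, 10 and 8 at 48 hpf and was not tested. hcrt (hypocretin) was not called (adjusted p = 0.307), and cart3 fell 5.27-fold.

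The pronephros, the embryonic kidney, gave 12 risen and 16 fallen genes of 39 (median -0.09). nphs1 (nephrin), of the filter, was not called (adjusted p = 0.0692, 0.00996 without replicate 3 at 24 hpf). The phosphate transporter gene slc20a1a rose 2.29-fold, and lhx1a, of kidney precursors and neurons, rose 13.2-fold. Genes of motile cilia fell in 35 of 76 cases and rose in 2 (median -0.43), with 1 risen without replicate 1 at 48 hpf. foxj1a, their master regulator, had 22.8, 21.8, 22.7 and 23.7 CPM at 24 hpf and 9.15, 9.63, 12.7 and 10.8 CPM at 48 hpf (log2 fold change -1.10 ± 0.21 SE, adjusted p = 0.00018). dnaaf4, a dynein assembly factor gene, fell 2.73-fold and tppp3 rose 2.75-fold. dnaaf1 fell 1.48-fold (adjusted p = 0.0431), but not without replicate 1, 2 or 4 at 24 hpf or replicate 2, 3 or 4 at 48 hpf (0.0565 to 0.112).

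Germ cell genes fell in 12 of 19 cases and rose in 1 (median -1.46). The rise was lost without replicate 1, 2 or 4 at 24 hpf or replicate 1, 2 or 3 at 48 hpf, and 2 rose without replicate 3 at 24 hpf. ddx4 (vasa) had 3.71, 3.83, 3.55 and 3.78 CPM at 24 hpf and 1.11, 0.982, 1.15 and 0.595 CPM at 48 hpf (log2 fold change -1.94 ± 0.29 SE, adjusted p = 1.53e-05), piwil1 fell 2.84-fold and gra 2.17-fold. nanos3 was not called (adjusted p = 0.0907) except without replicate 1 at 24 hpf or replicate 3 at 48 hpf (0.0281 to 0.0423).

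Clock genes, whose levels depend on the hour of sampling, rose in 22 of 44 cases and fell in 11 (median 0.31). The hour of collection is not given beyond the age. Embryos fertilised at the same hour would, by their nominal ages, be at the same time of day in both groups. Any difference in the actual hour cannot be told apart from age. nr1d2a, a repressor of the clock, had 2.81, 4.69, 3.58 and 3.3 CPM at 24 hpf and 40.2, 37.1, 49.6 and 29.3 CPM at 48 hpf (log2 fold change 3.44 ± 0.25 SE, adjusted p = 1.71e-09), and its relative nr1d1 rose 2.5-fold (adjusted p = 0.0318), but not without replicate 1, 2 or 4 at 24 hpf or replicate 2 or 4 at 48 hpf (0.0574 to 0.0882). cry5, a photolyase gene induced by light, fell 3.69-fold, and per3 fell 1.37-fold. per1b, per2 and aanat2, the melatonin enzyme gene, were not called (adjusted p = 0.857, 0.0575 and 0.0827). per2 was called lower under RLE scaling (0.0485), with no filter (0.0438) and in the fit of the 8 wild-type libraries (3.56e-05), and aanat2 was called higher in that last fit (0.0482).

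Detoxification and redox genes rose in 26 of 57 cases and fell in 8 (median 0.54). sod2, the mitochondrial superoxide dismutase gene, had 1.54, 1.74, 2.12 and 2 CPM at 24 hpf and 19.3, 24.9, 23.1 and 23.8 CPM at 48 hpf (log2 fold change 3.62 ± 0.13 SE, adjusted p = 2.78e-13). cyp1a, an aryl hydrocarbon receptor target, was not called (adjusted p = 0.0897, 0.00668 without replicate 3 at 24 hpf). mt2 (metallothionein) had 2.54, 7.54, 31.9 and 1.01 CPM at 24 hpf and 2.42, 1.38, 1.37 and 1.95 CPM at 48 hpf and fell (adjusted p = 0.0251, log2 fold change -2.60), but not without replicate 3 at 24 hpf (-1.08) or replicate 2 or 3 at 48 hpf (adjusted p 0.0596 to 0.282). In the insulin and Igf axis 12 of 25 genes rose and 3 fell (median 0.34), and without replicates 1 and 4 at 24 hpf 7 rose and 4 fell (median 0.19). igfbp5a had 1.64, 1.32, 1.23 and 1.33 CPM at 24 hpf and 6.59, 6.57, 5.63 and 3.57 CPM at 48 hpf (log2 fold change 2.02 ± 0.34 SE, adjusted p = 4.72e-05), and igfbp1a, another binding protein gene, rose 1.88-fold. The call of igfbp1a ended without replicates 1 and 4 at 24 hpf (adjusted p = 0.0623). igf2a rose 1.27-fold (adjusted p = 0.0399), but not without replicate 1 or 2 at 24 hpf or replicate 1 or 3 at 48 hpf (0.102 to 0.188). The growth hormone receptor gene ghrb fell 2.16-fold, and igf1 was not called (adjusted p = 0.611).

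Among 81 genes of Wnt, Fgf, Bmp and Hedgehog ligands 33 rose and 25 fell (median 0.15). gdf5, a ligand of forming joints, had 0.053, 0, 0 and 0.0532 CPM at 24 hpf and 7.6, 6.19, 6.32 and 4.98 CPM at 48 hpf (log2 fold change 7.75 ± 0.43 SE, adjusted p = 4.73e-11), and fgf17, of the midbrain-hindbrain boundary and tailbud, fell 6.62-fold. Retinoid genes were divided, 12 risen and 13 fallen of 38 (median 0.13). crabp1a, a binding protein of retinoic acid, had 0.053, 0.311, 0 and 0.0532 CPM at 24 hpf and 18.5, 16.9, 19.1 and 26.8 CPM at 48 hpf (log2 fold change 7.56 ± 0.42 SE, adjusted p = 3.97e-11; 9.06 without replicate 2 at 24 hpf). rbp7b, a retinol binding protein gene, fell 5.08-fold, and cyp26b1, which degrades retinoic acid, was not called (adjusted p = 0.168).

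Most whole-library measures differed between the ages. Several of them are sums over genes of lists described above and so repeat those results. The 8 wild-type libraries held totals of 38188286 to 43623138 counts. Between 26378 and 26851 genes had at least 1 read in the 24 hpf libraries and between 27111 and 27651 in the 48 hpf libraries, and the 10 most counted genes took 6.2% ± 0.12 (SD, n = 4) and 7.46% ± 0.422 of counts. The totals overlapped between the ages and were not tested. Groups did not overlap for the number of genes with a read and the share of the 10 most counted genes. Nor did they for the shares of ribosomal, cell cycle, sarcomere, crystallin, globin (0.191% ± 0.0274 and 0.255% ± 0.0183) and mitochondrially encoded protein genes (2.53% ± 0.117 and 3.02% ± 0.194). For all 8 the exact permutation p was 0.0286, the smallest that 4 against 4 libraries allow, and 0.0321 after adjustment over 9 measures. These shares are of unscaled counts. After TMM scaling the summed mitochondrially encoded genes overlapped, with 23754 to 27878 CPM at 24 hpf and 26299 to 31288 CPM at 48 hpf. Along the first principal component, which held 76% of the variance, the 24 hpf libraries lay at -126.35 (replicate 4), -116.08 (replicate 1), -106.63 (replicate 2) and -100.48 (replicate 3), the last of them nearest to 48 hpf.

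The age comparison was repeated in the 8 mutant libraries, none of which entered the wild-type means, though all 16 shared the estimate of the spread. In mutants 8279 genes rose and 7377 fell (64.4% of genes tested). Of the 15383 genes called in wild type, 13092 were called in the same direction in mutants, 85.1% of the wild-type calls and 83.6% of the mutant calls, and 49 in the opposite direction. The change with age differed between the genotypes for 244 genes (1.00% of those tested), 118 with a more positive change in mutants and 126 with a more negative one. Those counts were 472 and 439 in DESeq2, 52 and 31 without replicate 2 of wild type at 48 hpf, and 122 and 209 without replicate 1 of wild type at 48 hpf.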

How the data were processed

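Read counts per gene, whole numbers that the authors deposited without normalisation or pooling, were taken for the 4 wild-type libraries at 24 hpf (sib24) and the 4 at 48 hpf (sib48), with the 8 mutant libraries in the same fit. The genome build was GRCz11, and the tools named were STAR 2.7.10b, featureCounts 2.0.6, Trim Galore 0.6.10 and FastQC 0.12.1, per the submitters' processing notes. The sources used here do not say which annotation was counted, whether strand was used or how reads matching several places were handled. Close paralogs, overlapping genes and antisense pairs are therefore uncertain. Counts carry no gene length, so levels are compared between libraries and not between genes.

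Genes were kept by filterByExpr with the 4 groups, which removed 11809 and left 24300, and counts were scaled by TMM. edgeR 4.0.16 (R 4.3.3) was run on all 16 libraries with its two-sided quasi-likelihood F-test, with 1 mean per group and no covariate, and the spread was estimated once over all groups. The fit was also run on simulated counts in which few genes changed, as many up as down. In the real comparison 63.3% of genes were called, so that simulation does not bear on the scaling used here. Calls required an adjusted p under 0.05, with Benjamini-Hochberg adjustment across every tested gene. Values of a gene in a library are TMM-scaled counts per 1000000 (CPM). Intervals and floors of few reads, at 95% confidence and 3 reads over a group, cover counting error only. Whole-library measures were compared by an exact permutation test over 70 assignments, whose smallest p is 0.0286. No 2 replicates agreed within sampling noise.

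The comparison, its gene lists and the tests were chosen with earlier results of these data known. Of 2454 entries in 63 lists, 2326 matched by symbol and 43 by a synonym, and with name patterns the lists held 2981 members in the file, which may stand in several lists. Among called genes that carry a symbol, reach 10 CPM in the higher group and have no overlap between groups, the 10 with the largest and the 10 with the smallest log2 fold change were named. Also named were the 5 largest rises and falls in CPM, and in each list its anchor genes and the called members with the largest and smallest change at 5 CPM or more. A few genes that this rule names are not reported here. Genes outside this rule are marked in the text as picked after their values were seen.

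Results were recomputed with DESeq2 1.42.0, with upper-quartile or RLE scaling, without a filter or with one of 1 CPM in 4 libraries, with a test against an absolute log2 fold change of 1, with the wild-type libraries alone, with the replicate number as a block, without each library in turn, and without sib24 replicates 1 and 4 together, known to be the lowest in yolk syncytial layer genes.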

Additional observations from a re-analysis of the deposited data

Results flagged for a closer look

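Among the genes named above, 47 groups of 4 libraries held 1 library set apart by Dixon's limit. That limit applies to the distance from the nearest of the others, relative to the range of the group. Chance alone marks about 1 group in 20, and 698 groups were searched. Where all the other libraries of a group held no read, any read passes the limit, so that rate does not apply. Replicate 1 at 24 hpf was the lowest for alas2 (62.9 CPM). Replicate 1 at 24 hpf was the highest for ckma (1215 CPM), crygm2d14 (0.0265 CPM), crygm2d4 (0.053 CPM), crygm2d5 (0.053 CPM), eno3 (164 CPM), hes2.2 (1.32 CPM), matn3a (0.212 CPM), mylpfa (2413 CPM), phox2bb (23.3 CPM) and rho (0.053 CPM). Replicate 2 at 24 hpf was the highest for cpa5 (0.0518 CPM), cry5 (10.7 CPM), crygm2d1 (0.415 CPM), crygm2d15 (0.0518 CPM), crygm2d2 (0.0518 CPM), elavl3 (275 CPM) and marco (0.0518 CPM). Replicate 3 at 24 hpf was the lowest for ampd1 (0.256 CPM), ascl1a (12.9 CPM) and tnni2b.2 (0 CPM). Replicate 3 at 24 hpf was the highest for agr2 (27.5 CPM), apoda.1 (0.921 CPM), crygm2d3 (0.205 CPM), grin1b (0.895 CPM), muc5.1 (2.89 CPM) and pomca (0.358 CPM). Replicate 4 at 24 hpf was the lowest for gpnmb (1.12 CPM) and krt91 (25.3 CPM). Replicate 1 at 48 hpf was the lowest for lpl (39.1 CPM), mt-co2 (4872 CPM) and snrpd1 (48.8 CPM). Replicate 2 at 48 hpf was the lowest for and1 (446 CPM) and slc1a3b (113 CPM). Replicate 2 at 48 hpf was the highest for en2a (19.5 CPM), gcga (1.82 CPM) and ins (3.65 CPM). Replicate 3 at 48 hpf was the highest for cry5 (3.37 CPM), mespba (0.0443 CPM) and mitfa (10.9 CPM). Replicate 4 at 48 hpf was the highest for crx (99.5 CPM), crygm2d1 (361 CPM), crygm2d9 (197 CPM), lft2 (0.108 CPM), otx5 (118 CPM), pmela (169 CPM) and tph2 (6.04 CPM). Most of the marked crystallin values at 24 hpf, and those of cpa5, lft2, marco, mespba, rho and tnni2b.2, rest on a few reads.

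The change with age differed between mutants and wild type, by the interaction test of edgeR, for 11 of the named genes, with adjusted p from 1.81e-05 (lpl) to 0.046 (agr2). Given as the log2 change in mutants minus that in wild type, the difference was positive for cdx4 (0.94), dla (0.62), dlc (0.42), hes2.2 (1.19), lpl (1.49), nkx6.2 (0.57) and slc25a4 (1.43). It was negative for agr2 (-1.19), gdf5 (-3.40), krt5 (-0.93) and krtt1c19e (-0.84).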

How the results depend on the processing

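The numbers of genes higher and lower at 48 hpf, 8290 and 7093, were 8042 and 7388 under RLE scaling, 8165 and 7234 under upper-quartile scaling, 8154 and 7528 in DESeq2, 8181 and 7185 with no filter, 7402 and 6940 with the filter of 1 CPM, 7883 and 7195 in the fit of 8 libraries, and 6713 and 6866 without replicates 1 and 4 at 24 hpf. Leaving out 1 wild-type library gave 7734 to 8113 and 6693 to 7075. A minimum absolute log2 fold change of 1 gave 3784 and 1289. The interaction counts, 118 and 126, were 472 and 439 in DESeq2, and 52 to 149 and 31 to 209 when 1 library was left out. Replicate numbers did not pair the libraries (correlations of deviations -0.01, 0.01, 0.04 and 0.04 for same-numbered libraries). With the replicate number as a block, 8194 and 6959 genes were called in wild type, 8190 and 7261 in mutants, and 55 and 42 for the interaction.

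Calls of some named genes changed with the setting. The test against an absolute log2 fold change of 1 changed the most. In it 84 of 349 named genes, among them actc1b, hmga1a, eef1a1l1, cdk1 and myl7, lost a call and none gained one. Only 27 of 126 counts of list members called stayed within 1.5 times their main value there. In DESeq2, apoa2, cdh5, myo7aa and spaw gained a call and fgb, igf2a, pomca and rplp2 lost one. Under RLE scaling, cdh5, myo7aa and per2 gained a call and igf2a and rplp2 lost one. Under upper-quartile scaling, myo7aa gained a call and igf2a and rplp2 lost one. With no filter, apoa2, myo7aa and per2 gained a call and dnaaf1, gnat2, igf2a, pomca and rplp2 lost one. With the filter of 1 CPM, cdh5 and myo7aa gained a call and rplp2 lost one. In the fit of 8 libraries, aanat2, apoa2, c6, cdh5, cyp26b1, gnat1, pck1, per2, pvalb9 and stab1 gained a call and gnat2, he1.1, igf2a, pomca, rplp2 and sp7 lost one. With the replicate block, apoa2, myo7aa, nphs1 and per2 gained a call and dnaaf1, he1.1, hnf4a, igf2a, mt2, myh6 and sp7 lost one. Without replicates 1 and 4 at 24 hpf, cdh5, foxa3, krt5, lyve1b, spaw, tg and tyr gained a call and cldne was called lower. In that fit cyt1, dio3b, dlc, dnaaf1, fgb, gnat2, hnf4a, igf2a and igfbp1a lost a call. So did krt4, lcp1, myh6, myl7, nr1d1, pomca, rhcgb and trpv6.

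Among named genes the direction of a called change reversed in none of these alternatives. 2 values with no call reversed into a call, cldne to -0.48 without replicates 1 and 4 at 24 hpf and gcga, which ran from -6.16 (without replicate 2 at 48 hpf, the called value) to 1.5 when 1 library was left out. The cause was not tested. The called gcga value rests on 33 reads at 24 hpf and none in the other 48 hpf libraries, so its size is uncertain. Depth limits the genes with few reads, such as ompa, oxt and mespba, for which the floor or the counting interval is the bound and a fitted fold change is not.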
